A study of Mus musculus with 8 samples.

Results

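The genes described here make sterols and fatty acids in the cell, or set how much of that synthesis takes place. They are 31 listed members of the pathway of the sterol regulatory element binding proteins (SREBPs), matched by gene symbol, and all 31 were found among the 24498 genes of the deposited table. By role, 5 act in the mevalonate steps, 4 between isopentenyl units and squalene epoxide, 9 between lanosterol and cholesterol, 5 in regulation or sterol transport and 8 in the synthesis, elongation and desaturation of fatty acids. Membership rests on pathway role and not on a threshold of measured values, but the list was drawn up with earlier results of these data known.

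Both routes start from acetyl-CoA in the cytosol, which enzymes of the mevalonate route build into isoprenoids and sterols and which fatty acid synthase extends into long chains. When sterols in the membrane of the endoplasmic reticulum run low, the escort protein SCAP carries SREBP to the Golgi, where proteases release the part that enters the nucleus and binds sterol response elements. SREBP2 acts mainly on sterol genes and SREBP1c mainly on fatty acid genes, while INSIG1 holds the SCAP complex back. The brain makes nearly all of its own cholesterol, with glia as the main source in adults. ACSS2, the target of the knockdown, makes acetyl-CoA from acetate and is itself under SREBP control.

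All mice were male C57BL/6J of 10 to 12 weeks, and all received an AAV2/9 virus in the dorsal hippocampus under isoflurane, with meloxicam against pain. The knockdown vector (AAV2/9.U6.shACSS2.CMV.EGFP) drives a short hairpin RNA against Acss2 from the U6 promoter and EGFP from the CMV promoter, and the control vector (AAV2/9.CMV.EGFP.polyA) names EGFP alone, so the groups also differ in carrying a hairpin, and no group carried another hairpin. Neither promoter is specific to a cell type, and the dissected tissue also held cells without the vector, in a share the labels do not give. The labels call the control mice WT, but they too carry the EGFP virus. After 3 weeks, trained mice met 3 objects in an arena, in 3 trials that lasted 6 min each, and were killed 30 min later, while untrained mice were home cage controls. Polyadenylated RNA of the dorsal hippocampus went into 8 libraries, 2 per group. The labels do not say whether the libraries came from separate mice, so p-values measure only the spread between libraries, which may be technical.

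Values are normalized read counts, that is reads divided by 1 size factor per library. They are always given in the order eGFP.254 and eGFP.268 (control, untrained), eGFP.250 and eGFP.266 (control, trained), KD.253 and KD.255 (knockdown, untrained), KD.249 and KD.251 (knockdown, trained), named by the ends of the deposited column names. Reads in genes came to between 6537749 and 9863728 in 6 libraries, against 1484318 in KD.251 and 272456 in KD.255. KD.255 held 636 reads of the 31 members in all, and Acat2, Mvd, Idi1 and Stard4 had 0 reads there. The limit that a count of 0 allows (3 reads) was 46.7 normalized counts in KD.255, 8.65 in KD.251 and at most 1.98 elsewhere. Such limits cover counting error only. A single read in KD.255 was worth 15.6 normalized counts, so the place of a low gene there against the control libraries rests on few reads. Counting error is not given gene by gene below, and such orders describe the values alone. Acss2 itself was at 58.2, 82.0, 87.4 and 67.5 in control libraries, and 25.0, 15.6, 25.6 and 57.7 in the knockdown ones. Its mean was 30.97 against 73.8, a ratio of 0.420 (exact two-sided permutation test over libraries, p = 0.0286, the smallest that 4 against 4 can give), and the value in KD.251 lay close to the lowest control library. Without any single control library the exact p was 0.0571, and the ratio without KD.251 was 0.299. Markers of the tissue were present in every library: Slc17a7, the glutamate transporter of excitatory neurons, stood between 1322 and 2753 normalized counts, and Prox1, a marker of dentate granule cells, between 330.4 and 1005.

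The summed level of the sterol synthesis genes was below that of every control library in 3 of the 4 knockdown libraries, and that of the fatty acid synthesis genes in 2. Summed over the 18 enzymes of the sterol route, normalized counts were 2526 and 3082 in untrained and 3512 and 3246 in trained control libraries. The same sum was 1540 and 2006 in untrained knockdown libraries and 1656 and 3263 in trained ones. KD.253, KD.255 and KD.249 lay below every control library, and KD.251 lay inside the control range. In the shallow libraries the 95% Poisson interval of the sum was 1675 to 2384 in KD.255, all of it below the lowest control value, and 3075 to 3458 in KD.251. For the 8 fatty acid genes the sums were 6323, 7911, 9119 and 7127 with the control vector and 5996, 7325, 5471 and 8674 with the knockdown vector. Here KD.253 and KD.249 lay below every control library, while KD.255 and KD.251 lay within the control range. Scd2 was the largest part of each fatty acid sum, so the sum does not stand for all 8 genes. By gene, 3 of the 8 lay below the lowest control library in KD.253, 3 in KD.255, 5 in KD.249 and 3 in KD.251. Of all tested genes 20.9%, 35.0%, 23.0% and 24.9% did so in the same order. Above the highest control library lay 1, 2, 0 and 3 of the 8, against 18.8%, 26.6%, 22.0% and 24.8% of all tested genes.

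**Figure D1:**
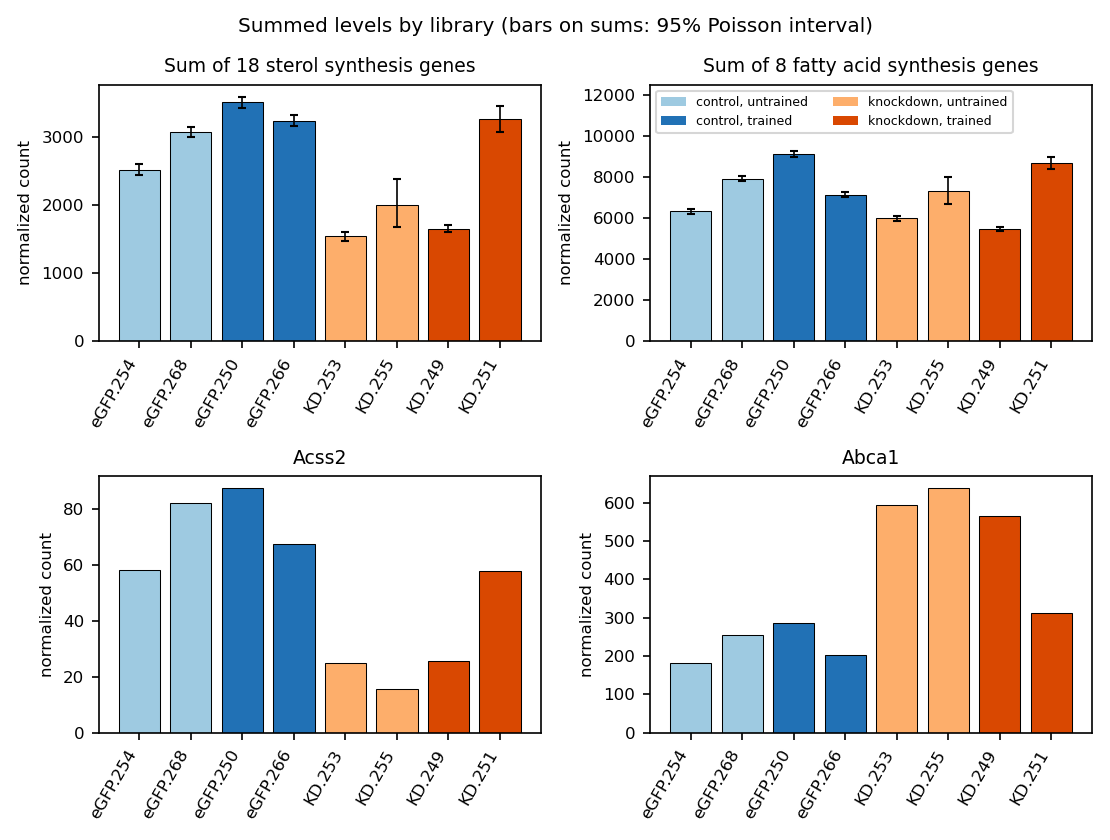
Summed normalized read counts of the 18 sterol synthesis genes and of the 8 fatty acid synthesis genes, and the normalized read counts of Acss2 and Abca1, as 1 bar per library (y axes start at 0; error bars on the sums are 95% Poisson intervals, which cover counting error only). The sterol sum was 1540 to 2006 in 3 knockdown libraries and 3263 in KD.251, against 2526 to 3512 in the control libraries.

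The main test was limma on log2(normalized read count + 1) over all 12681 genes with a mean of at least 10, a limit that all 31 members passed, and differences below are on that log2 scale. The call threshold was an adjusted p of 0.05 (Benjamini-Hochberg, over the whole set tested). Averaged over training, 26 of the 31 members lay below 0 (knockdown minus control), against 55.7% of all tested genes. The median of the members was -0.49, and that of all tested genes -0.03. With 0 reads set to the limit of 3 reads in each library, the members' median was -0.47. No member was called, where limma called 0.103% of all genes (13, all of them higher with the knockdown vector), and 10 of the 31 had an unadjusted p under 0.05, against 5.59% of all genes.

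Fits on the recovered reads called 1 member lower by edgeR, 1 by DESeq2 and 2 by limma-voom, and none higher. Fdft1 was called by edgeR (adjusted p = 0.0413), by DESeq2 (adjusted p = 0.00107) and by limma-voom (adjusted p = 0.0213), and Stard4 by limma-voom alone (adjusted p = 0.0411). At an unadjusted p under 0.05 stood 14, 13 and 18 members by edgeR, DESeq2 and limma-voom, against 7.85%, 7.03% and 9.05% of all genes. In the same order these tools called 0.962%, 1.54% and 1.24% of all genes, and 0.0473%, 0.237% and 0.118% of all genes lower. Setting KD.251 aside gave 2 calls by limma, Fdft1 (adjusted p = 0.0411) and Msmo1 (adjusted p = 0.0300), with 0.0551% of genes called lower. Without KD.255 and KD.251 together, the libraries under 2000000 reads, limma called 6 members lower (Hmgcs1, Fdps, Fdft1, Sqle, Msmo1 and Stard4) with 0.197% of all genes called lower. edgeR then called the same genes except Fdps, 5 in all, with 0.157% of all genes called lower. Leaving out both shallow libraries kept KD.253 and KD.249 alone, 1 knockdown library per training state. It also removed KD.251, the knockdown library inside the control range of the sterol sum. Each of these members is a sterol gene, and no fatty acid gene was called by any of these fits. Over all alternatives the adjusted p of Fdft1 ran from 0.00107 to 0.983, the latter with only the libraries of the lower run of column numbers, and that of Msmo1 from 0.00527 to 0.999. The column numbers fall in 2 runs, of which the higher holds eGFP.266 and eGFP.268 alone, and the labels do not say what the numbers mean. With the run as a term in the fit, or within the lower run, limma called no member, and 28 of 31 lay below 0.

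**Figure D2:**
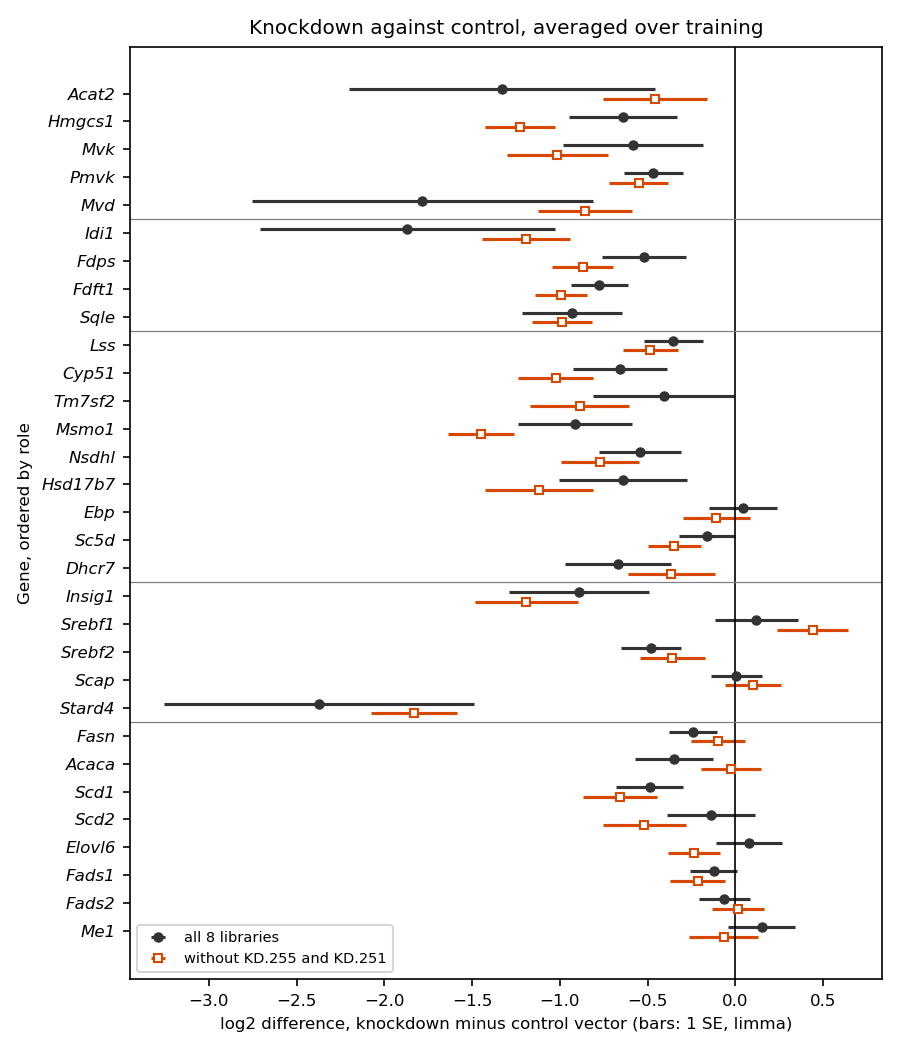
Log2 difference, knockdown minus control vector and averaged over training, for each of the 31 genes ordered by role, with bars of 1 SE from limma (filled circles, all 8 libraries; open squares, without KD.255 and KD.251). The sterol genes lie mostly left of 0 in both fits, and the widest bars in the fit of all libraries are those of the 4 genes with 0 reads in KD.255.

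Library by library, KD.251 stood apart from the other 3 knockdown libraries. Members below the lowest control library numbered 23 of 31 in KD.253 (74.2%, against 20.9% of all tested genes), 20 in KD.255 (64.5% against 35.0%) and 25 in KD.249 (80.6% against 23.0%), but 9 in KD.251 (29.0% against 24.9%). Of the 18 sterol genes 17, 14, 17 and 4 lay below the lowest control library in the same order, and of the 8 fatty acid genes 3, 3, 5 and 3. Fdft1 and Srebf2 were the members with all 4 knockdown libraries below all 4 control libraries, 2 of 31, where 1.98% of all tested genes had that order. With KD.251 set aside, a choice made after its values were seen, 17 of 31 members had 3 knockdown libraries below every control, against 4.63% of all tested genes.

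**Figure D3:**
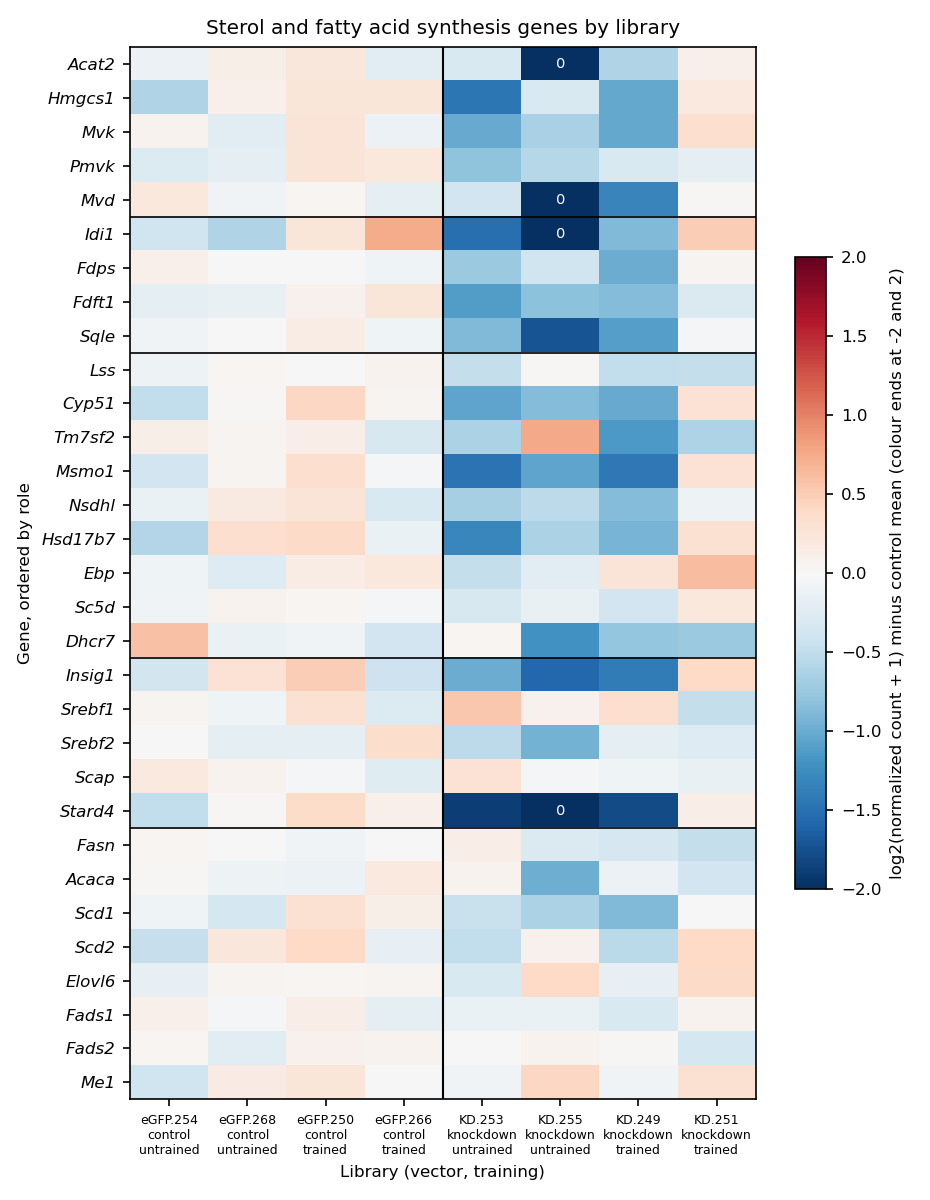
Log2(normalized read count + 1) of each of the 31 genes in each of the 8 libraries, minus the mean of the 4 control libraries (colour scale ends at -2 and 2; a printed 0 marks a gene with 0 reads in that library). The upper rows, the sterol genes, are blue in KD.253, KD.255 and KD.249 and mixed in KD.251, and the lowest block, the fatty acid genes, is paler throughout.

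The mevalonate steps turn acetyl-CoA into isopentenyl pyrophosphate. All 5 genes lay below 0, with a median of -0.64. Hmgcs1 (chromosome 13, 119690379 to 119708260, plus strand, GRCm38, protein coding) encodes the synthase that makes HMG-CoA, an early intermediate of the route. It was at 521, 848, 936 and 939 in control libraries, and 291, 638, 389 and 903 in the knockdown ones. KD.253 and KD.249 lay below every control library, while KD.255 and KD.251 lay among them. The difference was -0.64 (SE 0.31, limma adjusted p = 0.873), and -1.23 (adjusted p = 0.0165) without the shallow libraries. Its adjusted p ran from 0.0165 to 0.999 over all alternatives. Pmvk, the phosphomevalonate kinase, was at 76.8, 81.2, 111 and 107 in control and 52.7, 62.2, 75.2 and 80.8 in knockdown libraries. It was below the control range in 3 libraries, with KD.251 between the untrained control values, and the difference was -0.47 (SE 0.17, limma adjusted p = 0.784). Acat2 (the cytosolic thiolase that starts the route), Mvk (mevalonate kinase) and Mvd (the decarboxylase that ends it) had control means of 21.7, 25.1 and 42.8, and their differences were -1.33, -0.58 and -1.78. The values for Acat2 and Mvd rest on 0 reads in KD.255. With those zeros at the 3-read limit the difference was 0.066 for Acat2 and -0.39 for Mvd.

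The stretch before the transcription start of 3 of these genes and of Fasn is shown because several sterol genes share its letters. The motifs searched on both strands, from 250 bases before to 50 after the start in RefSeq promoter windows (GRCm38.p6), were TCACCCCAC, the core of a sterol response element, TCACNCCAC, a looser form that contains the first, CCAAT, the box of the factor NF-Y, and GGGCGG, the box of Sp1. Windows matched 24 of the 31 members; Fdft1, Sqle, Fdps, Stard4, Scd1, Scd2 and Fads1 were not matched. In Hmgcs1 alone of the 24, TCACCCCAC was found, starting 137 bases before the start, and TCACNCCAC was found nowhere else in them. These letters were in 0.614% and 1.44% of the 27025 genes with a window. CCAAT was in the windows of 19 of 24 members (79.2%), against 41.1% of all genes with a window and 42.6% of the 9762 tested ones. GGGCGG was in 20 of 24 (83.3%), against 38.2% of all and 69.7% of tested genes. In the sequences, capitals mark TCACCCCAC and CCAAT, the latter written ATTGG where it lies on the other strand. Each gives the 250 bases before the start, read along the gene's strand: Hmgcs1 from chr13:119690101-119690350 (plus), Mvk from chr5:114444019-114444268 (plus), Mvd from chr8:122443423-122443672 (minus) and Fasn from chr11:120824548-120824797 (minus). The last 3 were chosen after their matches were seen.
Hmgcs1: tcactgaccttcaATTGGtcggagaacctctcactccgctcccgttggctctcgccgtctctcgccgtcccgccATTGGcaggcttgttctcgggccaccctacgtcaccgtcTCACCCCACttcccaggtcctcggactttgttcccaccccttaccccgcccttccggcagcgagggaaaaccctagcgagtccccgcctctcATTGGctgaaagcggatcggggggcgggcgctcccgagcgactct
Mvk: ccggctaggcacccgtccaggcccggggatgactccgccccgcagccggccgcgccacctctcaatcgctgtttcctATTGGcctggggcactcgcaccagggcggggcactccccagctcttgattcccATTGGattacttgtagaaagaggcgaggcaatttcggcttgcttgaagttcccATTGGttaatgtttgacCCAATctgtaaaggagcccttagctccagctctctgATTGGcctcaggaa
Mvd: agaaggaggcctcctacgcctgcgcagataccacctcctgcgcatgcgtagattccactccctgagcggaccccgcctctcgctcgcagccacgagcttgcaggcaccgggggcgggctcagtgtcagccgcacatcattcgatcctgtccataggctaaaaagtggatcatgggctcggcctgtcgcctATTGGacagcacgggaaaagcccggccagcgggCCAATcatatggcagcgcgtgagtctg
Fasn: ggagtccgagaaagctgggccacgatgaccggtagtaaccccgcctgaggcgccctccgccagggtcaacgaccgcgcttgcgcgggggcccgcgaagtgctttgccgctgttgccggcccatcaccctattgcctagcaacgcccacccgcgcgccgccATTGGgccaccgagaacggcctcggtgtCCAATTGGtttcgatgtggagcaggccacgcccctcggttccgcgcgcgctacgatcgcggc
Hmgcs1 has 3 CCAAT boxes in the stretch shown, Mvk 5, Mvd 2 and Fasn 3, of which the pair nearest the start of Fasn overlap on opposite strands. Fasn had the smallest difference of these 4 averaged over training, as its values below show. That order was not tested, nor was any link between the letters and the differences. A match of letters describes the window and is not a bound site. Nor does a window without a match show that a sterol response element is absent, since only these letters and windows were searched.

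From isopentenyl units to squalene epoxide, all 4 genes lay below 0, with a median of -0.85, the lowest of the 5 roles. Fdft1 (chromosome 14, 63145150 to 63179578, minus strand, protein coding) encodes squalene synthase, the first enzyme committed to sterols. Its normalized counts were 315, 322, 381 and 422 in control libraries, and 164, 202, 195 and 291 in the knockdown ones. Every knockdown library, KD.251 included, lay below every control library. The difference was -0.78 (SE 0.16, limma adjusted p = 0.201) and lay between -0.99 and -0.67 under all alternatives. The mean was 213 ± 54.7 (SD, n = 4) with the knockdown vector against 360.0 ± 50.8 (SD, n = 4) with the control vector, a ratio of 0.592.

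Sqle (chromosome 15, 59315077 to 59331192, plus strand), squalene epoxidase, a control point of the route, was at 149, 157, 173 and 147 in control and 84.4, 46.7, 72.7 and 153 in knockdown samples. KD.253, KD.255 (3 reads) and KD.249 lay far below the controls, and KD.251 within them. Its difference was -0.93 (SE 0.29, limma adjusted p = 0.598), and -0.99 without the shallow libraries (adjusted p = 0.0226, of a range over all alternatives from 0.0226 to 0.999). Fdps, farnesyl pyrophosphate synthase, was at 111, 102, 102 and 96.6 in control and 60.6, 77.8, 51.2 and 107 in knockdown libraries. Its control values were close together, with 3 knockdown libraries below them and KD.251 among them. The value in KD.255 rests on few reads. The difference was -0.52 (SE 0.24, limma adjusted p = 0.873), and without the shallow libraries -0.87 (adjusted p = 0.0467, of a range from 0.0467 to 0.999). Idi1, the isomerase of isopentenyl pyrophosphate, was at 35.5, 30.6, 55.8 and 79.4 in control and 15.8, 0, 25.1 and 66.3 in knockdown libraries. Both trained control libraries were above both untrained ones, and the trained knockdown library KD.251 lay between the trained control values. Its difference of -1.87 (SE 0.84) was -0.48 with the 0 in KD.255 at the 3-read limit.

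**Figure D4:**
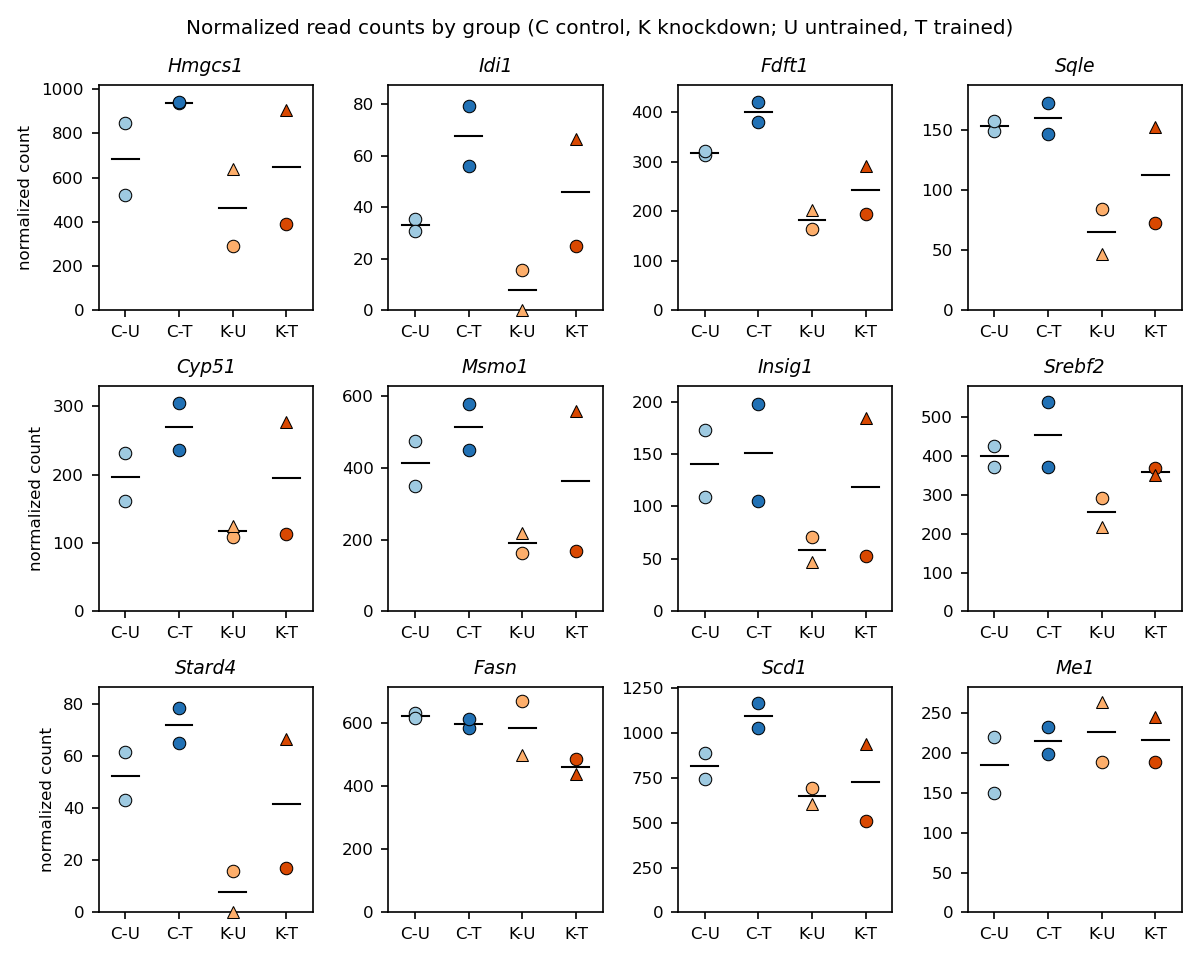
Normalized read counts of 12 of the genes in each group (C control, K knockdown, U untrained, T trained), with 1 point per library, a bar at the mean of the pair and triangles for KD.255 and KD.251; y axes start at 0. Fdft1 and Srebf2 are the genes shown in which all knockdown points lie below all control points, and in Msmo1, Stard4 and Sqle the K-T pair is split, with KD.251 at the control level.

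Between lanosterol and cholesterol, 8 of 9 genes lay below 0, with a median of -0.54. Msmo1 (chromosome 8, 64718139 to 64733792, minus strand), the sterol C4 methyl oxidase, was at 351, 474, 579 and 449 in control libraries, and 163, 218, 169 and 559.6 in the knockdown ones. The trained knockdown libraries lay farther apart than the lowest and highest control libraries. The difference was -0.92 (SE 0.33, limma adjusted p = 0.779), -1.30 without KD.251 and -1.45 without both shallow libraries (adjusted p = 0.00527). Cyp51, the lanosterol demethylase, was at 161, 232, 305 and 235 in control and 109, 124, 113 and 277 in knockdown libraries. The values of 109 to 124 in KD.253, KD.255 and KD.249 were under every control library, and the difference was -0.66 (SE 0.27, limma adjusted p = 0.855).

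Dhcr7, which makes cholesterol in the last step of one branch, was at 109.9, 66.5, 69.8 and 56.0 in control and 75.1, 31.1, 42.5 and 43.3 in knockdown libraries. One control library, eGFP.254, stood well above the rest, and KD.253 was above 3 of the 4 control libraries. The difference was -0.67 (SE 0.30, limma adjusted p = 0.873), and -0.37 without the shallow libraries. The remaining 6 were Lss (lanosterol synthase, -0.35), Nsdhl and Hsd17b7 (which remove the C4 methyl groups with Msmo1, -0.54 and -0.64), Tm7sf2 (a sterol reductase, -0.41), Sc5d (the desaturase before Dhcr7, -0.16) and Ebp (a sterol isomerase, 0.04). None was called by any fit named above, and Ebp, the exception in sign, lay at -0.11 without the shallow libraries.

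The regulators and the sterol carrier did not move as a block: 3 of 5 lay below 0. Srebf2 (chromosome 15, 82147181 to 82205379, plus strand), which encodes SREBP2, was at 425, 373, 371 and 538 in control and 293, 218, 368 and 352 in knockdown libraries. All knockdown libraries lay below all control libraries, by a narrow margin in KD.249, whose 368 stood just under the lowest control value of 371. The difference was -0.48 (SE 0.17, limma adjusted p = 0.774). Insig1, an SREBP target whose protein holds back SREBP processing, was at 109, 173, 198 and 105 in control and 70.5, 46.7, 52.7 and 185 in knockdown libraries. Its control values spread widely, with 3 knockdown libraries under them and KD.251 near their top, for a difference of -0.89 (SE 0.40, limma adjusted p = 0.873). Stard4 (chromosome 18, 33199355 to 33213862, minus strand), a carrier that moves cholesterol between membranes, was at 43.0, 61.6, 78.6 and 65.1 in control and 15.8, 0, 16.9 and 66.3 in knockdown libraries. KD.253 and KD.249 were far below the control range and KD.251 inside it. The limma difference of -2.37 (SE 0.88) rests in part on the 0 in KD.255 and was -0.98 with that library at the 3-read limit. It was -1.83 without the shallow libraries (adjusted p = 0.00629, of a range over alternatives from 0.00629 to 0.999).

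Srebf1, which encodes SREBP1, was at 122, 111, 145 and 97.1 in control and 171, 124, 149 and 83.7 in knockdown libraries. KD.253 and KD.249 were above every control library and KD.251 below them, and the difference was 0.12 (SE 0.24). Its sign turned under 4 alternatives. Scap was at a mean of 176 ± 22.6 (SD, n = 4) in control and 177 ± 25.6 (SD, n = 4) in knockdown libraries, a difference of 0.01 that fell on the other side of 0 with TMM scaling (-0.0059).

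Of the 8 fatty acid synthesis genes 6 lay below 0, with a median of -0.13; the difference between roles was not tested. Fasn (chromosome 11, 120805846 to 120824547, minus strand), fatty acid synthase, was at 630.4, 616, 585 and 612 in control and 670.3, 498, 486 and 438 in knockdown libraries. KD.253 lay above all control libraries and the other 3 knockdown libraries below them, and the difference was -0.24 (SE 0.14, limma adjusted p = 0.873). Acaca, acetyl-CoA carboxylase, was at 187, 172, 169 and 212 in control and 193, 93.3, 169 and 141 in knockdown libraries. Its groups overlapped, its lowest value was that of KD.255 (6 reads), and the difference was -0.35 (SE 0.22).

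Scd1, the desaturase that makes oleate, was at 886, 741, 1166 and 1026 in control and 693, 607, 512 and 938 in knockdown libraries. It was the fatty acid gene with the lowest difference, -0.49 (SE 0.19, limma adjusted p = 0.848), and KD.253, KD.255 and KD.249 lay below every control library. Scd2, its paralogue and the desaturase of the brain, was at 2941, 4725, 5357 and 3630.0 in control and 2876, 4293, 2784 and 5365 in knockdown libraries. Values of both vectors spanned nearly the same range, and the difference was -0.14 (SE 0.25). Reads without a unique alignment stand in a separate entry of the deposited table, so reads that fit both paralogues equally would count for neither.

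Elovl6, which lengthens palmitate to stearate, was at 305, 355, 352 and 353 in control and 275, 451, 303 and 444 in knockdown libraries. Both shallow libraries, KD.255 and KD.251, were above every control library and the other pair below, and the difference of 0.08 became -0.24 without the shallow ones. Fads1 and Fads2 introduce the double bonds of polyunsaturated fatty acids. Fads1 was at 784, 710.1, 801 and 644 in control and 669.6, 669, 594 and 767 in knockdown libraries, and overlapped between vectors (-0.12, SE 0.13). Fads2 was at 439.7, 371, 457 and 451 in control and 429.7, 451, 435 and 335 in knockdown libraries, with KD.251 alone below the control range (-0.06, SE 0.15). Me1, the malic enzyme that supplies NADPH for synthesis, was at 149, 220.4, 233 and 199 in control and 188, 264, 188 and 245 in knockdown libraries. No knockdown library was below the control range, and the difference was the highest of the members at 0.15 (SE 0.19), which became -0.068 without the shallow libraries.

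Per kilobase of annotated exon (GENCODE M21), the control mean was highest for Scd2 at 762 normalized counts, followed by Scd1 (195), Hmgcs1 (177), Fads1 (153), Fads2 (130) and Fdft1 (85.2), and lowest for Tm7sf2 (6.22). Between neighbours in that order the spread over libraries matters: the gap between Scd1 and Hmgcs1, and that between Hmgcs1 and Fads1, is smaller than the SD of Hmgcs1 over the control libraries. In bulk tissue, fewer cells of a type and less RNA per cell cannot be told apart, which holds for every difference given here.

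Training state entered the comparison of vectors as follows. In untrained mice 27 of 31 members lay below 0, against 55.2% of all tested genes, and the median was -0.61. In trained mice it was 28 of 31, against 50.7%, with a median of -0.44. In both states 25 members, and 17 of the 18 sterol genes, lay below 0. Without the shallow libraries, which left 1 knockdown library per state, it was 24 members. The share of all genes below 0 in both states was not computed. The control libraries of the states are separate, so these values share no library.

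By limma no member was called in either state, with 7 and 2 members at an unadjusted p under 0.05 in untrained and trained mice, against 4.5% and 2.36% of all genes. In untrained mice limma called 0% of all genes, edgeR 0.181%, DESeq2 0.434% and limma-voom 0.00789%, and none of these tools called a member. Unadjusted p under 0.05 were reached there by 4 members with edgeR, 4 with DESeq2 and 6 with limma-voom, against 3.92%, 2.74% and 4.76% of all genes. In trained mice the shares of all genes were 0.00789%, 0.0315%, 0.26% and 0.00789%, again with no member called, and 2, 2 and 10 members reached an unadjusted p under 0.05 with edgeR, DESeq2 and limma-voom, against 4.83%, 3.21% and 5.16% of all genes. Single libraries weighed heavily. Without KD.249 the median in trained mice was -0.0080, and without KD.251 it was -0.66. Without KD.253 limma called 5 members lower in untrained mice, but that left KD.255 as the lone untrained knockdown library, and 8.95% of all genes were then called lower.

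**Figure D5:**
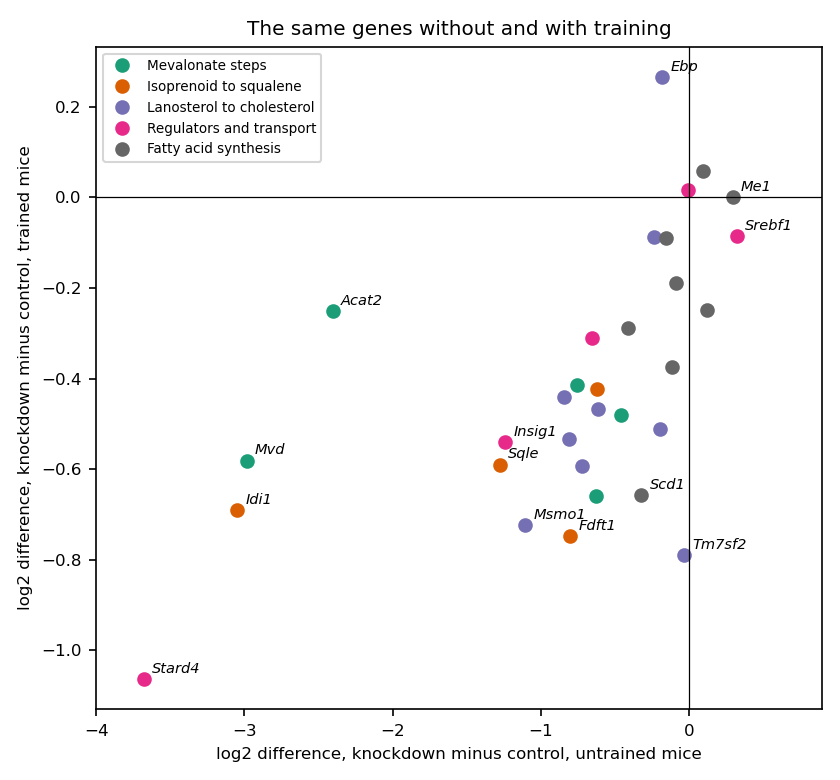
Log2 difference, knockdown minus control vector, of each of the 31 genes in untrained mice (x axis) and in trained mice (y axis), coloured by role; axes differ in scale. Most genes lie below 0 in both states (25 of 31), and the 4 at the far left have 0 reads in KD.255.

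Members differed most between the states where KD.255 had 0 reads: Stard4 was at -3.68 in untrained mice and at -1.06 in trained mice (SE 1.14 each), and Idi1 at -3.05 and -0.69 (SE 1.11 each). Fdft1 was nearly the same in both, at -0.80 and -0.75 (SE 0.25 each). Sqle was at -1.28 and -0.59 (SE 0.40 each), Insig1 at -1.24 and -0.54 (SE 0.56 each), and Scd1 at -0.32 and -0.66 (SE 0.28 each). The test of the difference between states, the interaction of vector and training, called no member by limma, edgeR, DESeq2 or limma-voom, each of which called 0% of all genes, and no member had an unadjusted p under 0.05 by any of them, against 0.883%, 0.773%, 0.41% and 0.796% of all genes. Of the members 20 of 31 lay above 0, against 52.9% of all genes, and the median was 0.13. That median turned to -0.19 without KD.251 and to -0.23 without both shallow libraries, and it was 0.37 without KD.249, 0.20 without eGFP.254, 0.071 without eGFP.268 and 0.067 without KD.253. With KD.253 left out, and KD.255 thus the lone untrained knockdown library, 4 members were called higher, along with 5.31% of all genes.

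Training itself was compared within each vector. With the control vector 22 of 31 members lay above 0 (trained minus untrained), against 52.1% of all genes, and the median was 0.10. No member was called by limma, edgeR, DESeq2 or limma-voom, where they called 0%, 0%, 0.0315% and 0% of all genes, and 0, 1, 0 and 2 members had an unadjusted p under 0.05, against 1.43%, 3.34%, 1.83% and 4.87% of all genes. Both trained libraries were above both untrained ones for 9 members (Hmgcs1, Pmvk, Idi1, Fdft1, Cyp51, Ebp, Stard4, Scd1 and Fads2), with 14.5% of all genes in that order, and below them for 2 (Scap and Fasn), with 14.3% of all genes in that order. The largest difference was that of Idi1, 0.99 (SE 1.11), followed by Hmgcs1 (0.49, SE 0.46) and Cyp51 (0.47, SE 0.40). In the same comparison all 14 oligodendrocyte markers lay above 0 (median 0.68, 6 with an unadjusted p under 0.05, none called), with sums of 16270 and 11450 in untrained and 21450 and 24610 in trained libraries. All 10 choroid plexus markers did so too (median 1.34, none called), and the part of either list in the members' values was not tested. The median of the members was 0.00096 without eGFP.250, 0.016 without eGFP.254 and 0.25 without eGFP.266.

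With the knockdown vector 23 of 31 members lay above 0, against 54.1% of all genes, and the median was 0.20. No member was called, and by limma, edgeR, DESeq2 and limma-voom 0% of genes were called. Here 3 members reached an unadjusted p under 0.05 by limma (Idi1, Stard4 and Ebp), 2 by edgeR, 2 by DESeq2 and 1 by limma-voom, against 4.48%, 2.27%, 1.27% and 2.33% of all genes. Both trained libraries lay above both untrained ones for 5 members (Pmvk, Idi1, Ebp, Srebf2 and Stard4), with 16.4% of all genes in that order, and below them for 2 (Scap and Fasn), with 14% of all genes in that order. Idi1 (3.35, SE 1.11) and Stard4 (3.08, SE 1.14) again rest on the 0 in KD.255. The median of the members was -0.14 without KD.251, -0.05 without both shallow libraries and 0.53 without KD.249, and 4 members were called higher without KD.253, along with 8.65% of all genes. These training comparisons share libraries with the comparisons of vectors and are no separate evidence on them.

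Other genes of the route that are not among the 31 were read from the same fit. Of 14 tested further sterol and SREBP genes, 11 lay below 0 averaged over training, against 55.7% of all tested genes. Their median was -0.15, and limma called none. Count and median include Acss2, the target of the hairpin, whose direction was set by the design. The lowest of the 14 genes was Acss2 itself (-1.37), and the highest Mbtps1 (0.14), a protease that releases SREBP. Acly, which makes acetyl-CoA from citrate, was at 448, 393, 370.2 and 409 in control and 417, 218, 329 and 372 in knockdown libraries (-0.31, SE 0.20).

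Interferon response genes were higher with the knockdown vector, as were the values of microglia markers without passing the test, and their part in the differences above was not tested. All 12 interferon response genes lay above 0, 8 of them called higher by limma, with a median of 4.09. Their sum was 279 to 405 in control libraries, 3095 to 5552 in KD.253, KD.255 and KD.249, and 1229 in KD.251. All 12 microglia markers lay above 0 (median 0.77, none called), with sums of 1056 to 1264 in control libraries, 2034 to 2221 in the same 3 knockdown libraries and 1454 in KD.251. KD.251, in which sterol genes stood at the control level, was thus also the knockdown library with the smallest interferon and microglia sums and the highest Acss2. It also held the highest sum of oligodendrocyte markers of the 8 libraries, 29290, against 18780 to 19740 in the other 3 knockdown libraries. No microglia or interferon gene of the lists was at 0 reads in any library.

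Among markers of glia, the main source of brain cholesterol, those of astrocytes and oligodendrocytes had smaller medians than those of microglia. Of 14 astrocyte markers 8 lay above 0 and 6 below (median 0.01), with Gfap, a gene of reactive astrocytes, the highest at 0.96, and sums of 29860 to 36120 in control and 32670 to 38040 in knockdown libraries. All 14 oligodendrocyte markers lay above 0 (median 0.37, none called), with sums of 11450 to 24610 against 18780 to 29290. Of these markers 5 had an unadjusted p under 0.05 by limma, against 5.59% of all genes. Neuron markers lay below 0 for 13 of 16 (median -0.20), with sums of 76190 to 92810 against 68870 to 81360. All 10 choroid plexus markers lay below 0 (median -1.79, none called). They were far higher in eGFP.250 and eGFP.254 (sums of 72570 and 18750) than in the other 6 libraries (738 to 3577). Folr1, Otx2, Aqp1 and Slc4a5 had 0 reads in KD.255 and Aqp1 in KD.251, and eGFP.250 also held the highest sum of the 31 members.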

How the data were processed

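RNA was measured in 8 libraries of mouse dorsal hippocampus, in 4 groups of 2 taken from the labels. Per the submitters' processing notes, the tools were bcl2fastq 02.14.01.07, STAR 2.3.0, HTSeq 0.6.1, DESeq and bedtools, and the build mm10; for annotation and strand setting the sources used here give nothing, so reads of a gene and of an antisense partner cannot be told apart. The authors deposited, for each gene, a signal per library that equals reads divided by a size factor. Whole reads were recovered for 100% of values (relative tolerance 1e-06). The table held 24503 entries, of which 5 are summary entries left out of sizes and tests (no gene, 16.4% to 20.3% of reads; not unique, 10.6% to 13.8%; not aligned, 2.76% to 7.86%; ambiguous, 0.379% to 0.424%). Of 24498 genes, 5869 had no read. No column was without a sample.

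On R 4.3.3, limma 3.58.1 (trend on intensity) was the main test. It ran on log2(value + 1) for 12681 genes whose mean was at least 10. That scale understates changes of low genes with reads in every library. Where KD.255 had 0 reads (Acat2, Mvd, Idi1 and Stard4), it gave larger differences than with zeros at the 3-read limit. The averaged comparison used an additive model of vector and training (5 residual and 4.71 prior degrees of freedom), the others 4 group means (4 and 5.13). P-values were adjusted by Benjamini-Hochberg over all tested genes, with a threshold of 0.05. edgeR 4.0.16 (quasi-likelihood), DESeq2 1.42.0 and limma-voom were run on the recovered reads. The code of the fits was run on simulated counts with the same spread setting for every gene, which does not test how these libraries vary. Alternatives were TMM scaling, pseudocounts of 5 and 20, no filter or a mean of at least 50, each library left out, libraries under 2000000 reads left out, and the run of column numbers. Zeros at the 3-read limit, edgeR without shallow libraries and edgeR with the run of numbers were added after seeing the data. The deposited unit called for limma where raw counts would have called for edgeR.

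The members and lists were chosen with earlier results of these data known. Values in every library are given for 19 members chosen by role, for the 6 with the smallest unadjusted p in the averaged comparison and for any member called by limma, edgeR or DESeq2. Positions are from GENCODE M21 (GRCm38) and promoter letters from RefSeq (GRCm38.p6). Some genes of the wider lists are counted in them but not reported singly here.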

Additional observations from a re-analysis of the deposited data

How the results depend on the processing

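2 libraries of few reads, KD.255 and KD.251, limit what low genes can show, and KD.251 is also at the control level for most sterol genes. Fits without both keep 1 knockdown library per training state. Members called for the knockdown averaged over training numbered 0 in the main fit, 1 by edgeR, 1 by DESeq2, 2 by limma-voom, 6 without the libraries under 2000000 reads, 5 by edgeR without them, and 0 to 2 with each library left out. With each library left out, calls ran from 0 to 5 for the knockdown in untrained mice, and from 0 to 4 both for training in knockdown mice and for the interaction, the highest each time without KD.253, where 8.95% of all genes were called lower, 8.65% higher and 5.31% higher in the same order. The members' median ran from -0.66 to -0.0080 for the knockdown in trained mice, from -0.14 to 0.53 for training in knockdown mice and from -0.19 to 0.37 for the interaction, which was -0.23 without the libraries under 2000000 reads and -0.22 by edgeR without them. The Acss2 ratio ran from 0.299 to 0.490 with each library left out (exact permutation p = 0.0571 without any 1 control library), and was 0.343 without the shallow libraries and 0.426 in the lower run of numbers (exact p = 0.0667 in both, the smallest possible).

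Signs turned for Acat2 and for members near 0 in the averaged comparison, and the cause was not tested except where the alternative itself gives it. Acat2, at -1.33 in the main fit, lay at 0.066 with zeros at the 3-read limit. Without the shallow libraries Ebp was at -0.11, Elovl6 at -0.24, Fads2 at 0.014 and Me1 at -0.068, and by edgeR without them at -0.092, -0.23, 0.021 and -0.076. With the run of numbers as a term, and within the lower run, Srebf1 was at -0.056 and Scap at -0.083. Scap was at -0.024 by edgeR with that term and at -0.0059 with TMM scaling, and Elovl6 at -0.068 by limma-voom. With each library left out, ranges crossed 0 for Ebp (-0.073 to 0.14), Srebf1 (-0.012 to 0.33), Scap (-0.057 to 0.073), Scd2 (-0.32 to 0.062), Elovl6 (-0.069 to 0.22) and Fads2 (-0.15 to 0.050). TMM scaling moved the median of all genes by less than 0.1. No paired analysis was possible because the column names carry numbers that no label ties to a replicate.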

Other observations

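Among the listed export genes, Abca1 had the highest difference, opposite in sign to most sterol synthesis genes. Abca1, the transporter that loads cholesterol onto apolipoproteins and a target of the oxysterol receptors LXR, was at 181, 255.02, 286 and 201 in control libraries and at 594, 638, 565 and 312 in knockdown libraries. Every knockdown library lay above every control library, and KD.251 lay nearest to them. The share of all genes in that order is not given here. The difference was 1.16 (SE 0.24, limma adjusted p = 0.201), and Abca1 rose by edgeR (1.17, adjusted p = 0.0275), by DESeq2 (adjusted p = 2.7e-04) and by limma-voom (adjusted p = 0.0284). In the same order these tools called 116, 165 and 142 of 12681 genes higher. Without KD.251 limma gave 1.40 (adjusted p = 0.0158), and over all alternatives the adjusted p ran from 2.7e-04 to 0.895. Of the 16 tested genes of export, oxysterols and storage 9 lay above 0, with a median of 0.08 and none called by limma, where the lowest was Nr1h2 (-0.74), which encodes LXR beta. For Apoe, the main lipoprotein of the brain, control values were 8635, 6224, 8613 and 8430.1, and knockdown values 11649, 9269, 12316 and 6366. Its value in KD.251 lay close to the lowest control value, and the other knockdown values exceeded the highest. Of all tested genes, 18.8% exceeded their highest control value in KD.253, 26.6% in KD.255 and 22.0% in KD.249. Neither the share that did so in these libraries together nor a test result for Apoe is given here. Cyp46a1, the neuronal cholesterol 24-hydroxylase, was at 427, 389, 322 and 192 in control and 335, 233, 174 and 225 in knockdown libraries (-0.44, SE 0.20, limma adjusted p = 0.873). Ch25h, which makes 25-hydroxycholesterol in immune cells, had at most 3 reads in any library and was not tested.

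Genes on either side of fatty acid synthesis differed little in median. Of 22 other tested genes of fatty acid synthesis and lipid assembly 13 lay below 0 (median -0.02, none called), from Acacb (-1.20, with 0 reads in KD.255) to Scd3 (0.60). Of 15 tested genes of fatty acid oxidation 10 lay below 0 (median -0.13, none called), from Acaa2 (-0.62) to Ppara (0.45). Of 5 tested markers of oligodendrocyte precursors 4 lay below 0 (median -0.05), and of 8 endothelial markers 5 (median -0.04), with none called.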
